A study of Mus musculus with 4 samples.

Results

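Of the genes on the array, 47 of 49 listed DNA repair and checkpoint genes were measured in mouse embryonic stem cells exposed to valproic acid (VPA), among 19938 genes represented in all. The rule for members is a list of gene names and uses no measured value, though it was drawn up with earlier results of these data known. It holds genes of DNA end joining, homologous recombination, the Fanconi anaemia pathway, nucleotide and base excision, mismatch repair and the checkpoint kinases. A gene was included when a probe set carried its symbol and no other, and the probe set with the highest mean over the arrays stood for it. Xrcc2 and Rbbp8 were not analysed here. The data are 4 one-colour Affymetrix arrays of total RNA from the line E14. Untreated cells gave 2 arrays, and cells that had 0.5 mM VPA in the medium for 4 h gave the other 2. VPA, an anticonvulsant drug, blocks histone deacetylases, the enzymes that take acetyl groups off histones. Both groups grew on primary embryonic fibroblasts that had been stopped with mitomycin C, in medium with serum and leukemia inhibitory factor. Mitomycin C crosslinks DNA, so the feeder cells in every culture had been given a DNA-damaging agent. The arrays are labelled as replicates, with nothing said of separate cultures, so the p-values rest on a spread between arrays that may be purely technical. RNA was taken from the whole culture, where fewer cells of a type and less RNA per cell cannot be told apart.

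A break through both DNA strands is rejoined either by end joining, in which the Ku proteins hold the ends for a ligase, or by homologous recombination, which copies the intact sister chromatid. Excision pathways cut out damaged bases, mismatch repair corrects copying errors, and the Fanconi anaemia proteins unhook crosslinks. The kinases ATM and ATR sense breaks and stalled forks and signal through CHK2 and CHK1. Embryonic stem cells divide fast, spend little time in G1 and are known to lean on homologous recombination.

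After 4 h with VPA, no repair or checkpoint gene passed the test at the adjusted threshold of 0.05. The members furthest above their untreated level for their error were Lig4, the ligase of end joining, at 0.52 ± 0.14 on the log2 scale (SE, n = 2 per group), the recombination gene Rad51c at 0.45 ± 0.13, the checkpoint kinase gene Chek2 at 0.45 ± 0.15 and the damage sensor gene Xpc at 0.32 ± 0.11. Below it were Nbn, a subunit of a complex that binds breaks, at −0.43 ± 0.14 and the nuclease gene Ercc4 at −0.35 ± 0.12. In fold terms these differences lie between 1.25-fold (Xpc) and 1.44-fold (Lig4) higher, and 1.28-fold (Ercc4) and 1.35-fold (Nbn) lower. With limma and Benjamini-Hochberg adjustment over 35556 probe sets, 0 of the 47 were called (smallest adjusted p = 0.487), and 0% of the 19938 represented genes. At an unadjusted p under 0.05 there were 4 higher members, where 5.9% of represented genes were higher, and 2 lower members, where 2.71% were lower. As shares of the 47 these are 8.51% and 4.26%.

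All 47 members belong to the 11290 brighter genes, whose mean signal is at or above 3.79, the median over all probe sets. Among the brighter genes 9.58% were higher and 3.37% lower at that p, so the members' shares are near this background, on the higher side below it. Group values did not overlap for 17 members higher with VPA (36.2% of the 47), against 24.1% of all represented genes and 32.2% of the brighter ones. They did not overlap for 8 lower members (17.0%), against 18.1% and 16.4%. A higher mean with VPA was found for 31 members, or 66.0%, against 53.7% and 60.9%. The median log2 difference over the members was 0.071, beside 0.015 over all represented genes and 0.056 over the brighter ones. With 1 array left out the members' median ran from 0.032 to 0.104. Differences ran from −0.43 to 0.52 with standard errors between 0.10 and 0.24. The count of higher members at that p was 9 without untreated replicate 1 (7.19% of represented genes), 0 without untreated replicate 2 (3.38%), 1 without VPA replicate 1 (2.80%) and 1 without VPA replicate 2 (2.24%). For lower members it was 2 (3.2% of represented genes), 0 (1.72%), 1 (1.29%) and 1 (0.883%) in the same order. After a second quantile normalization the members' median was 0.010 and that of all represented genes −0.0042.

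**Figure D1:**
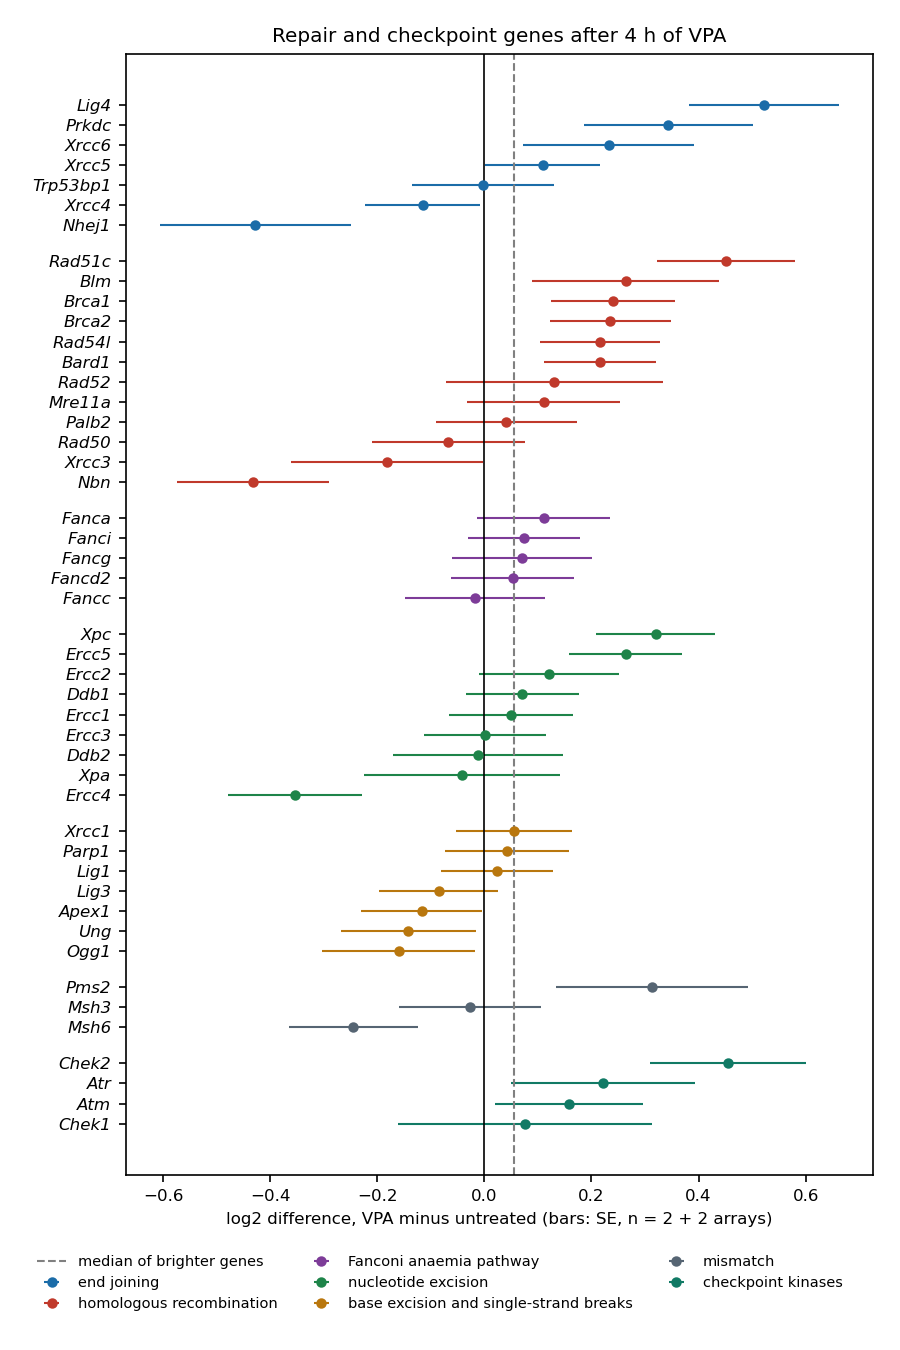
Log2 difference between VPA and untreated cells for each of the 47 members, grouped by repair pathway (points, estimates; bars, SE from limma; 2 arrays per group; dashed line, the median of the brighter genes at 0.056). Lig4, Chek2 and Rad51c lie farthest right and Nbn, Nhej1 and Ercc4 farthest left, and base excision genes stay between −0.16 and 0.056.

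End joining needs the Ku pair to bind the ends, the kinase DNA-PKcs, and a ligase with its partners. Of the 7 members, 4 had a higher and 3 a lower mean, with a median of 0.11 that was 0.065 without untreated replicate 2. Lig4, which encodes DNA ligase IV, lay at 6.70 and 6.50 in untreated cells and at 7.24 and 7.01 with VPA, a difference of 0.52 with a 95% interval of 0.16 to 0.88 (adjusted p = 0.487 in limma). Both VPA arrays were above both untreated arrays. Xrcc4, whose product binds and stabilises ligase IV, lay at 5.09 and 5.17 untreated and at 5.04 and 4.98 with VPA, a difference of −0.12 ± 0.11 (SE). The groups did not overlap for Xrcc4, as for 18.1% of all represented genes and 16.4% of the brighter ones on the lower side. Its 95% interval ran from −0.39 to 0.16. Nhej1, which encodes the XLF protein that works beside XRCC4, lay at 5.30 and 5.61 untreated and at 5.19 and 4.86 with VPA (−0.43 ± 0.18). Its groups did not overlap, and VPA replicate 1 lay close below untreated replicate 1.

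The Ku subunits and DNA-PKcs had higher means. Xrcc5 (Ku80) lay at 9.80 and 9.71 untreated and at 9.88 and 9.85 with VPA, a difference of 0.11 ± 0.11 (SE). Xrcc6 (Ku70) lay at 7.72 and 7.34 untreated and at 7.75 and 7.77 with VPA, a difference of 0.23 ± 0.16. Untreated replicate 2 was the low array for Xrcc6, and without it the difference was 0.041. Prkdc, the gene of DNA-PKcs, lay at 5.99 and 5.68 untreated and at 6.28 and 6.08 with VPA (0.34 ± 0.16), and differed by 0.19 without untreated replicate 2. Trp53bp1 encodes 53BP1, which shields ends from the resection that recombination needs. It lay at 6.12 and 6.37 untreated and at 6.23 and 6.25 with VPA, a difference of −0.0026 with a 95% interval of −0.34 to 0.34.

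**Figure D2:**
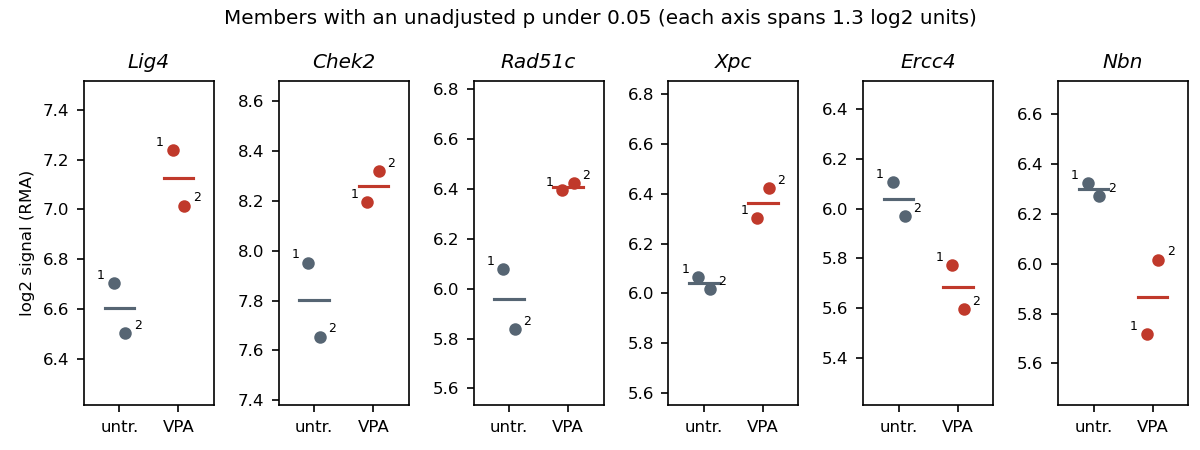
Log2 signal on each array for the 6 members with an unadjusted p under 0.05, untreated at left and VPA at right in each panel (points, arrays, numbered by replicate; lines, group means; every axis spans 1.3 log2 units). In each panel the groups do not overlap, which the choice of members by that p makes likely. Lig4, Chek2, Rad51c and Xpc are higher and Ercc4 and Nbn lower with VPA.

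Homologous recombination had the most members, 12 measured of 14, and a median of 0.17, with 9 higher and 3 lower means. The median was 0.072 without untreated replicate 2 and 0.10 after a second quantile normalization. Rad51c, whose product acts at resected ends, lay at 6.08 and 5.84 untreated and at 6.40 and 6.42 with VPA. The difference was 0.45 with a 95% interval of 0.12 to 0.78 (adjusted p = 0.494 in limma), and the VPA arrays were close together. Xrcc3, whose product forms a complex with that of Rad51c, had a lower mean, at 6.17 and 6.62 untreated and 6.16 and 6.27 with VPA (−0.18 ± 0.18, SE). Its groups overlapped, and its difference was 0.044 without untreated replicate 2. Rad54l, which encodes a motor protein of strand exchange, lay at 7.87 and 7.92 untreated and at 8.18 and 8.05 with VPA, a difference of 0.22 ± 0.11. Rad52, a strand-annealing protein, differed by 0.13 ± 0.20, and by −0.14 without untreated replicate 2.

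BRCA1, BARD1 and BRCA2 act together in recombination at breaks. Brca1 lay at 7.48 and 7.64 untreated and at 7.77 and 7.83 with VPA, a difference of 0.24 ± 0.12 (SE). Its partner in a ubiquitin ligase, Bard1, lay at 6.87 and 6.85 untreated and at 7.05 and 7.10 with VPA, a difference of 0.22 ± 0.10. Brca2 lay at 7.39 and 7.35 untreated and at 7.54 and 7.68 with VPA, a difference of 0.24 ± 0.11. None of the 3 had overlapping groups, where 24.1% of all represented genes and 32.2% of the brighter ones were higher without overlap. None of the 3 had an interval that left out 0. Palb2, which links BRCA1 and BRCA2, differed by 0.041 ± 0.13, and its groups overlapped. Bard1 has 2 further probe sets with its symbol alone, which gave 0.11 ± 0.29 and −0.092 ± 0.12, so its probe sets disagreed, and their mean gave 0.077 ± 0.13.

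The MRN complex, made of MRE11, RAD50 and NBS1, binds breaks and activates ATM. Its genes did not share a direction. Nbn, the gene of NBS1, lay at 6.33 and 6.27 untreated and at 5.72 and 6.02 with VPA (adjusted p = 0.504 in limma), with a 95% interval of −0.80 to −0.067. VPA replicate 1 was the lowest array. A second Nbn probe set of lower signal gave −0.057 ± 0.18 (SE), and the mean of both gave −0.24, which was not under the unadjusted threshold. Mre11a lay at 7.70 and 7.41 untreated and at 7.72 and 7.61 with VPA (0.11 ± 0.14), and Rad50 at 7.57 and 7.27 untreated and at 7.38 and 7.32 with VPA (−0.067 ± 0.14). Both had overlapping groups, and each turned sign when an untreated array was left out (Mre11a to −0.034 without replicate 2, Rad50 to 0.086 without replicate 1). Blm, a helicase that takes apart recombination intermediates, lay at 7.74 and 7.30 untreated and at 7.76 and 7.81 with VPA, a difference of 0.26 ± 0.17 that was 0.045 without untreated replicate 2.

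Fanconi anaemia genes lay close to their untreated level. The 5 members ran from −0.017 (Fancc) to 0.11 (Fanca), with a median of 0.071. Groups did not overlap for 1 of the 5, on the higher side, where 24.1% of all represented genes and 32.2% of the brighter ones lay. Fanca, a subunit of the core complex, lay at 6.42 and 6.56 untreated and at 6.69 and 6.52 with VPA, a difference of 0.11 ± 0.12 (SE). Fancd2 and Fanci encode the pair that is ubiquitinated at a crosslink. Fancd2 differed by 0.053 ± 0.12, and by −0.026 after a second quantile normalization. Fanci lay at 7.40 and 7.35 untreated and at 7.43 and 7.47 with VPA, a difference of 0.074 ± 0.11, with no overlap. Fancg, another core subunit, differed by 0.071 ± 0.13. The median of these genes was −0.022 without untreated replicate 2.

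Nucleotide excision repair removes bulky lesions such as those of ultraviolet light. Of 9 members 6 had a higher and 3 a lower mean, with a median of 0.050, which was −0.031 after a second quantile normalization. Xpc, which finds the distorted helix, lay at 6.07 and 6.02 untreated and at 6.30 and 6.42 with VPA, with a 95% interval of 0.034 to 0.61 (adjusted p = 0.517 in limma). After a second quantile normalization the difference was 0.25 and no longer under the unadjusted threshold. The pathway cuts with a pair of nucleases. Ercc5, which encodes XPG, lay at 6.83 and 6.89 untreated and at 7.13 and 7.12 with VPA, a difference of 0.26 ± 0.11 (SE) with an interval that includes 0. Ercc4, which encodes XPF, lay at 6.11 and 5.97 untreated and at 5.77 and 5.60 with VPA, with a 95% interval of −0.68 to −0.031 (adjusted p = 0.525 in limma). Ercc1, the obligate partner of XPF, lay at 7.04 and 7.18 untreated and at 7.20 and 7.11 with VPA, a difference of 0.050 ± 0.12 with overlapping groups. The helicases of the TFIIH complex differed by 0.12 ± 0.13 (Ercc2) and 0.00049 ± 0.11 (Ercc3), and the sensor genes Ddb1 and Ddb2 by 0.071 ± 0.11 and −0.012 ± 0.16. Xpa, a scaffold of the incision complex, differed by −0.042 ± 0.18.

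Base excision and single-strand break repair had 7 members, 3 with a higher and 4 with a lower mean, and a median of −0.085. Ogg1, a glycosylase for oxidised guanine, lay at 5.07 and 5.34 untreated and at 5.12 and 4.97 with VPA, a difference of −0.16 ± 0.14 (SE). Ung, which removes uracil, lay at 7.67 and 7.90 untreated and at 7.64 and 7.64 with VPA, a difference of −0.14 ± 0.13. Apex1, the endonuclease that cuts at the abasic site, differed by −0.12 ± 0.11 and Lig3, a ligase, by −0.085 ± 0.11. The scaffold gene Xrcc1 (0.056 ± 0.11), the nick sensor gene Parp1 (0.043 ± 0.12) and the replicative ligase gene Lig1 (0.024 ± 0.10) lay slightly above their untreated level. No member had a higher group without overlap, where 24.1% of all represented genes and 32.2% of the brighter ones did. A lower one was found for 3 (Ung, Apex1 and Lig3), against 18.1% and 16.4%. Without untreated replicate 2 Ung differed by −0.027 and Lig3 by −0.019. The median was −0.019 without untreated replicate 2.

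Mismatch repair had 3 members, which went both ways. Msh6, whose product recognises mispaired bases, lay at 10.05 and 9.86 untreated and at 9.74 and 9.69 with VPA, a difference of −0.24 ± 0.12 (SE). Pms2, a nuclease subunit, lay at 6.77 and 6.58 untreated and at 6.78 and 7.20 with VPA, a difference of 0.31 ± 0.18. Only VPA replicate 2 stood clearly above the other arrays for Pms2, and without it the difference was 0.10. Msh3 differed by −0.026 ± 0.13, and by 0.091 without untreated replicate 1.

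All 4 checkpoint kinases had a higher mean with VPA, with a median of 0.19. Chek2, the kinase downstream of ATM, lay at 7.95 and 7.65 untreated and at 8.20 and 8.32 with VPA, a difference of 0.45 with a 95% interval of 0.079 to 0.83 (adjusted p = 0.504 in limma). Atm lay at 7.32 and 7.04 untreated and at 7.34 and 7.34 with VPA (0.16 ± 0.14, SE). Atr lay at 7.11 and 6.70 untreated and at 7.06 and 7.20 with VPA (0.22 ± 0.17), with overlapping groups. Chek1, the kinase downstream of ATR, lay at 8.86 and 8.20 untreated and at 8.65 and 8.55 with VPA (0.076 ± 0.24). Its VPA arrays fell between the untreated ones, whose distance was the largest within a group among the members. Untreated replicate 2 was the lowest array for all 4 kinases. Without untreated replicate 1 the median of the kinases was 0.42. Without untreated replicate 2 it was 0.016, Chek1 differed by −0.26 and Chek2 by 0.31, the smallest Chek2 difference with an array left out.

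That array was also low for the members as a whole. Untreated replicate 2 was the lowest of the 4 arrays for 24 of 47 members (51.1%), against 30.2% of all represented genes and 38.8% of the brighter genes. The members' median deviation from their own mean over the 4 arrays was −0.098 there, −0.011 in untreated replicate 1, 0.046 in VPA replicate 1 and 0.012 in VPA replicate 2. In untreated replicate 2 it was −0.0043 over all represented genes and −0.041 over the brighter ones. Base excision genes did not share this: for 0 of their 7 members was that array the lowest, and their median deviation there was 0.053. The part that the array plays in the differences of single members was not tested beyond leaving it out.

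**Figure D3:**
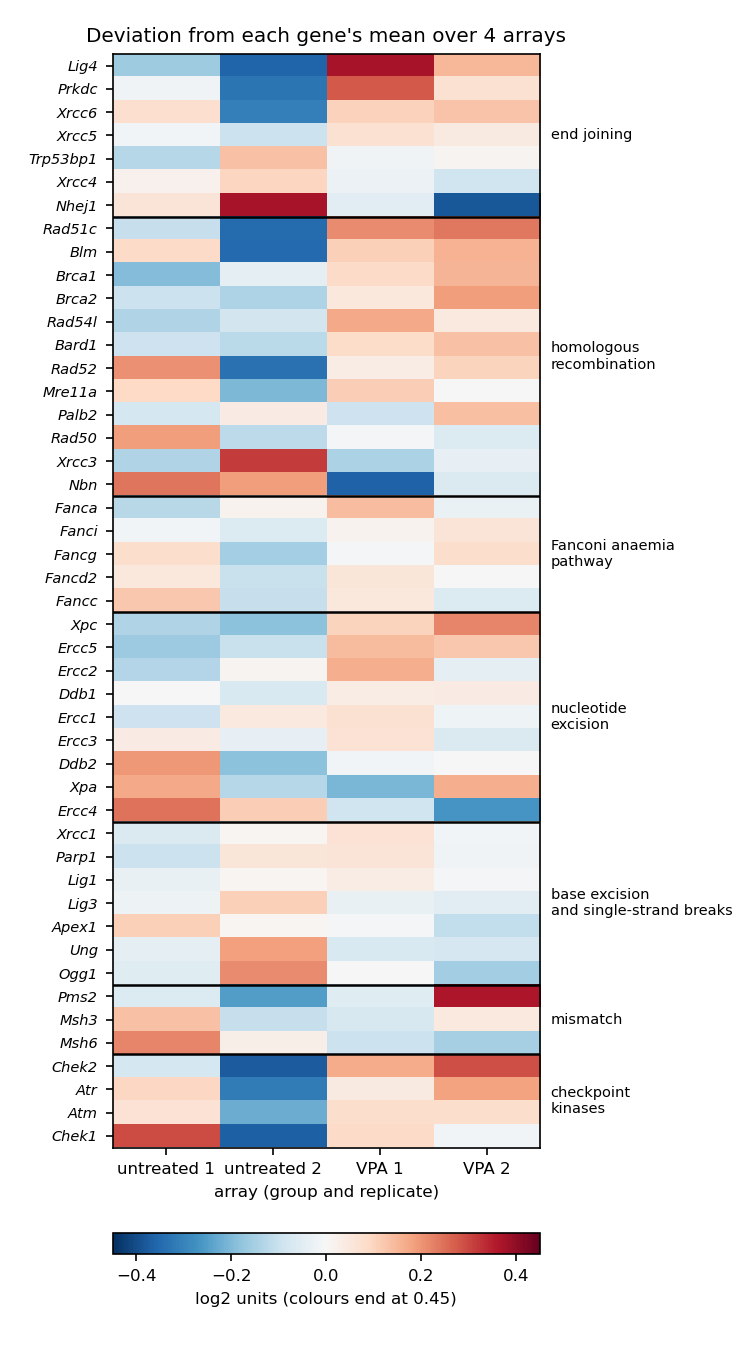
Deviation of each member from its own mean over the 4 arrays, in log2 units (rows, genes grouped by pathway and ordered by difference; columns, arrays; red, above the mean; blue, below it; colours end at 0.45). Untreated replicate 2 is blue for all 4 checkpoint kinases and for most recombination genes, and base excision genes are pale or red there.

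**Figure D4:**
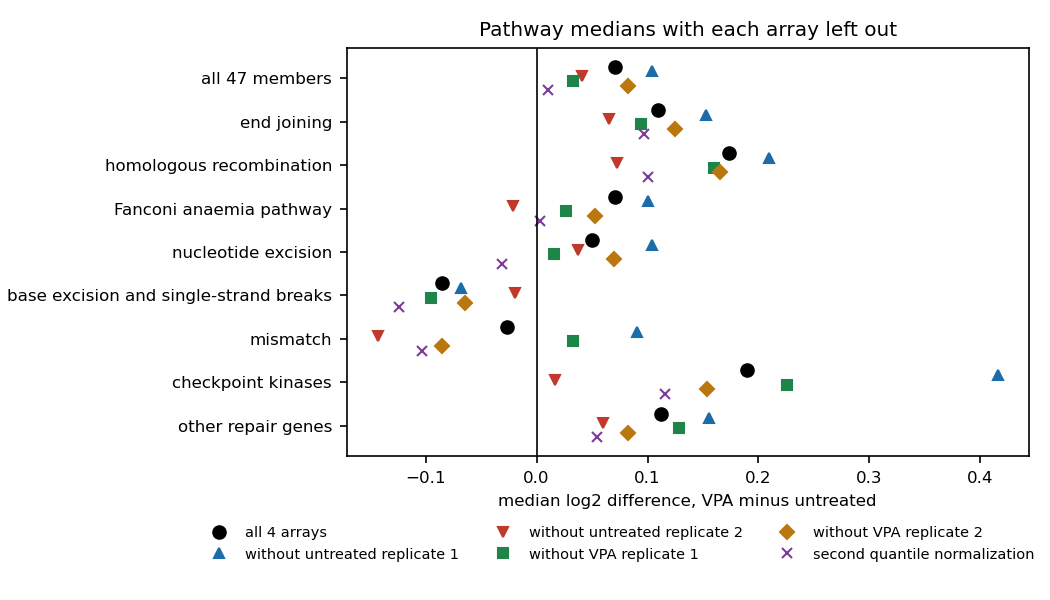
Median log2 difference of each repair pathway, of all 47 members and of 77 other repair genes (black, all 4 arrays; other symbols, 1 array left out or a second quantile normalization). Checkpoint kinases move most, from 0.016 to 0.42 with an array left out, and the Fanconi, mismatch and nucleotide excision medians cross 0 in at least 1 setting.

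A list of other repair genes, from the same pathways and from translesion synthesis, direct reversal and damage signalling, held 87 names, of which 77 were measured. Of these, 59 had a higher and 18 a lower mean (76.6% higher, against 53.7% of all represented genes and 60.9% of the brighter ones), and the median difference was 0.11. None had an adjusted p under 0.05, and at an unadjusted p under 0.05 in limma 10 of the 77 were higher, against 5.9% of all represented genes and 9.58% of the brighter ones, and 0 were lower. The smallest p among higher ones belonged to Polh, a polymerase that copies past ultraviolet lesions, which lay at 5.08 and 4.92 untreated and at 5.63 and 5.62 with VPA (0.63 ± 0.11, SE, adjusted p = 0.462 in limma). The recombination gene Rad51b differed by 0.52 ± 0.12 and Neil3, a glycosylase, by 0.53 ± 0.16. Among lower ones were the glycosylase gene Nthl1 at −0.37 ± 0.17, the demethylase gene Alkbh2 at −0.41 ± 0.19 and the XPC partner gene Rad23b at −0.22 ± 0.11. Untreated replicate 2 was the lowest array for 43 of the 77 (55.8%), and without it their median was 0.060.

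Genes that p53 is known to switch on after damage gave 9 higher and 9 lower means among 18 measured of 20, with a median of 0.0052. At an unadjusted p under 0.05 in limma 2 (11.1%) were higher, against 5.9% of all represented genes and 9.58% of the brighter ones. At that p 0 were lower, and none was called. Btg2, an antiproliferative gene, lay at 6.34 and 6.31 untreated and at 7.03 and 6.93 with VPA (0.66 ± 0.11, SE, adjusted p = 0.462 in limma), and Sesn1 differed by 0.31 ± 0.11. Sesn2 differed by −0.20 ± 0.11 and the death receptor gene Tnfrsf10b by −0.26 ± 0.16. Cdkn1a and Bax were not analysed here.

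Markers of the cells in the culture were read in the same way. Stem cell markers were present, with Pou5f1 between 10.63 and 10.96 and Nanog between 10.18 and 10.88 on the 4 arrays. Of 12 such markers 4 had a higher and 8 a lower mean with VPA, with a median of −0.10, and 3 lower ones, Nanog among them (−0.48 ± 0.14, SE), had an unadjusted p under 0.05 in limma, against 2.71% of all represented genes. Of 20 fibroblast markers, 7 had a higher and 13 a lower mean, with a median of −0.064. Under that p were 1 higher (Thy1) and 1 lower (Ccdc80), or 5% each, against 5.9% and 2.71% of all represented genes. Col1a1 lay at 6.67 and 7.001 untreated and at 6.74 and 6.37 with VPA, and Lum between 2.18 and 2.37 over the 4 arrays. The fibroblast markers' median deviation was −0.0098 and 0.071 in untreated replicates 1 and 2 and −0.017 and −0.047 in VPA replicates 1 and 2. Their part in the repair genes' values was not tested.

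The RefSeq promoter table (GRCm38.p6) held 40 of the 47 members, and 250 bases before the most upstream listed start were read for each. Of the 6 members with an unadjusted p under 0.05 it held Lig4, Rad51c, Chek2 and Ercc4. The stretches lie at chr8:9977681-9977716 (Lig4, minus strand), chr11:87404955-87405012 (Rad51c, minus), chr5:110839794-110839982 (Chek2, plus) and chr16:13109486-13109735 (Ercc4, plus). Their letters, 5′ to 3′, are shown because these genes carry the differences above, 3 higher and 1 lower, and because the record of a neighbouring gene borders 3 of them. Each run ends at the member's start and is cut where it meets another annotated gene. Capitals mark matches, on either strand, to GGGCGG (an Sp1 box), to CCAAT (bound by NF-Y) or to an E2F motif. The E2F motif was searched in the form TTTCCCGC, as well as in a form with GG in the middle, TTTGGCGC, and in a form with CG there, TTTCGCGC.
Lig4: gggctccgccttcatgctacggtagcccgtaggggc
Rad51c: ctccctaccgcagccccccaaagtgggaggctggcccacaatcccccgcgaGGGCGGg
Chek2: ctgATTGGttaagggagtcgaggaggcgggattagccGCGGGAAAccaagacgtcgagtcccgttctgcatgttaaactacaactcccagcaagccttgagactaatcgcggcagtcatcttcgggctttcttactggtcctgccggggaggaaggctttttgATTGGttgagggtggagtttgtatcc
Ercc4: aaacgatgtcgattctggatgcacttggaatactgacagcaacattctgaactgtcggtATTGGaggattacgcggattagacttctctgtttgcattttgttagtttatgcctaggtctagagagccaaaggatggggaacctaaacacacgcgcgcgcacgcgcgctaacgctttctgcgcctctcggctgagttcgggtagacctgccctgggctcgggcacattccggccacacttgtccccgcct

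The gene records of Chek2 and Ercc4 include the base just before the starts used. How far into the printed stretches these records reach was not read. Lig4 and Abhd13 start 37 bases apart on opposite strands, so the gap between them is the whole of the Lig4 run. Abhd13 lay at 7.66 and 7.07 untreated and at 7.67 and 7.88 with VPA (0.41 ± 0.23, SE), again with untreated replicate 2 the lowest array, and VPA replicate 1 barely above untreated replicate 1. Rad51c and Tex14 start 111 bases apart on opposite strands by the table's starts, and Tex14 differed by −0.044 ± 0.12. Hscb, whose record borders the Chek2 run, differed by 0.0051 ± 0.11. Starts on opposite strands within 1000 bases were found for 15 of the 40 members (37.5%), against 18.2% of 9054 brighter genes with a promoter entry and 11.4% of all 27025 genes with one.

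Of 8 motifs counted in the whole 250 bases, 4 are described here, and the other 4 were found in 1 to 6 of the 40 members. There the GGGCGG letters were found in 26 of 40 (65%), against 61.7% of the brighter genes, and CCAAT in 19 (47.5%), against 36.8%. The E2F letters were found in 6 of 40 (15%), against 3.28% of the brighter genes and 1.59% of all genes. The 6 are Chek2, Brca2, Xrcc6, Bard1, Fancg and Msh3, of which 5 had a higher mean with VPA, beside 22 of the 34 members without these letters. For CCAAT the mean was higher in 12 of 19 members with the letters and in 15 of 21 without. For GGGCGG it was higher in 17 of 26 with and in 10 of 14 without. The TATAAA letters were found in 1 of 40 (2.5%), against 6.13% of the brighter genes. The members' stretches held a median of 17 CG pairs, against 16 in the brighter genes and 6 in all genes. These are counts of letters in a fixed window, and no factor's binding was measured.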

How the data were processed

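Per the submitters' processing notes, the authors used Affymetrix Expression Console 1.1 and RMA, and they deposited a log2 signal for every probe set. RMA makes the distributions of arrays alike, and the set of arrays it was run on was not stated. The 4 arrays, with medians between 3.80 and 3.82, held 35556 probe sets, of which 21789 had 1 symbol in the platform annotation, 1621 several and 12146 none. No detection calls were used. Arrays were grouped by their titles. All probe sets were fitted in limma 3.58.1 (R 4.3.3, lmFit then eBayes), with treatment as the only term and no trend or robust option, and p-values were adjusted by Benjamini-Hochberg over 35556 probe sets. Intervals use 4.93 degrees of freedom. The smallest p that exact permutation of 2 against 2 arrays allows is 0.33. The fit was tested on simulated data, with noise drawn separately for each probe set. Such data hold no shift shared by a whole array, and the outcome is not reported here. The members and lists were chosen with earlier results of these data known. Array values are given for members with an unadjusted p under 0.05, the 2 of smallest p in each pathway, the checkpoint kinases, the BRCA genes, Trp53bp1 and 3 protein pairs. Those of Prkdc, Rad54l, Xrcc3, Mre11a, Rad50, Blm, Ercc5 and Ercc1 were added after their values were seen. Of the other repair genes the 3 of smallest p in each direction are named, and of p53 targets 2. Genes beside the promoters were chosen after the members' values were seen. Promoter letters come from RefSeq, GRCm38.p6. Few replicates limit the precision.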

Additional observations from a re-analysis of the deposited data

How the results depend on the processing

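No member was called at an adjusted p of 0.05 under any of the 10 alternatives (a second quantile normalization, centring, leaving out dimmer probe sets, trend and robust moderation, averaged probe sets, the replicate block and each array left out). With an array left out, 1 group has a single array that is assumed to vary like the others. The count of higher members at an unadjusted p under 0.05 in limma then ran from 0 to 9, and that of lower ones from 0 to 2, which was 1 with probe sets averaged. Counts without overlap ran from 19 to 27 higher and from 10 to 15 lower, with a single array in 1 group, where 37.3% to 39.6% of all represented genes were higher and 29.2% to 35.2% lower. After a second quantile normalization the members' median was 0.010 and that of the other repair genes 0.055. At an unadjusted p under 0.05 in limma 3 members were then higher and 3 lower (4.33% and 3.74% of all represented genes). Groups did not overlap for 12 higher and 9 lower members (21.1% and 21.0% of all represented genes). A higher mean was found for 26 members, and for 48.9% of all represented genes. With each array left out the median of the other repair genes ran from 0.060 to 0.16.

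The replicate numbers gave a correlation of −0.097 between the groups' replicate differences, so they are not taken to pair the arrays. With the replicate block 3 members were higher and 2 lower at that p (3.95% and 1.57% of all represented genes), and all differences are unchanged by construction. Signs turned after a second quantile normalization for Fancd2 (−0.026), Ercc1 (−0.031), Ercc3 (−0.050), Xrcc1 (−0.027) and Lig1 (−0.0015), and for Ercc3 after centring (−0.0053). With an array left out, 31 of 47 members kept their sign. The other 16 ranged as follows: Trp53bp1 from −0.13 to 0.13, Palb2 from −0.073 to 0.155, Rad52 from −0.14 to 0.40, Xrcc3 from −0.41 to 0.044, Mre11a from −0.034 to 0.26, Rad50 from −0.22 to 0.086, Fancc from −0.13 to 0.096, Fancd2 from −0.022 to 0.13, Fancg from −0.045 to 0.19, Xpa from −0.23 to 0.14, Ercc1 from −0.020 to 0.12, Ercc3 from −0.065 to 0.066, Ddb2 from −0.20 to 0.18, Parp1 from −0.032 to 0.12, Msh3 from −0.14 to 0.091 and Chek1 from −0.26 to 0.41. The causes were not tested.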
